A study of Mus musculus with 6 samples.

Results

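The members described here are the 1695 probes on mouse chromosome 8 that were well above background on at least 3 of 6 arrays, out of 2850 non-control probes that the array design places on that chromosome and 30730 probes kept over the whole genome. The arrays compared embryonic stem cells without the 3 TET enzymes with their parental line, and the chromosome was picked from these same data because its probes were lower in the cells without TET. Values of the chromosome are therefore given as a description with no test of the chromosome, and a call on a probe counts as a call on that probe alone. Of the 1155 probes left out, 903 were above background on no array, 173 on 1 and 79 on 2. Of the members, 1397 were above background on all 6 arrays, 82 on 5, 104 on 4 and 112 on 3. The members carry 1173 gene or transcript names, of which 736 matched a RefSeq symbol, all of them placed on chromosome 8 by RefSeq as well.

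The wild-type samples (WT) were the mouse embryonic stem cell line BJ FF2 ES, and the triple knockout samples (TKO) were Tet1, Tet2 and Tet3 knockout cells derived from that line. There were 3 samples of each, each from 1 dish of cells. Both lines were cultured in parallel on feeder cells (mouse embryonic fibroblasts) in 2i medium and went to matrigel without feeders before RNA was taken. The labels do not say how many clones the knockout line comes from or which exons were altered, and the spread between samples is that between dishes, so a difference between the lines that has nothing to do with TET cannot be told apart from one that has. RNA from a dish also holds all cells in it, so fewer cells of a kind and less RNA per cell cannot be told apart.

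TET enzymes oxidise the methyl group of 5-methylcytosine in DNA, mostly at CG dinucleotides, and this leads to loss of the methyl mark. Embryonic stem cells in 2i, a medium with inhibitors of the kinases MEK and GSK3, are held in a naive pluripotent state with little DNA methylation. Mouse chromosome 8 carries, among others, the naive pluripotency marker Zfp42 (also called Rex1), the alpha and beta defensin clusters, the metallothioneins, the cadherins and the second Iroquois cluster.

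All levels below are log2 of the processed array signal relative to the 75th percentile of the same array, so 0 is the signal at that percentile. Differences are TKO minus WT on that log2 scale, with the standard error (SE) of the limma fit for 3 against 3 samples. A probe is called, and is said to have risen or fallen, where its limma p-value adjusted by the Benjamini-Hochberg method over all 30730 kept probes was under 0.05. The reference probes are 22034 kept probes on the autosomes other than 1, 8, 10 and 11. Positions are those of the array files in the mouse build mm9, and whether a probe lies in an exon or an untranslated region was not read from an mm9 annotation.

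Sequences are shown for 4 probes to long intergenic noncoding transcripts and for 2 promoters. These probes were picked after their values were seen, and the displacement of the chromosome does not rest on any of these sequences. The probes are shown because the transcripts have no gene symbol, and the array file gives only the interval of each transcript and its strand. The first lies between Triml1 and Triml2, with Zfp42 beyond Triml2, and the other transcripts lie apart from it along the chromosome. Each probe is printed 5′ to 3′ as on the array, with CG dinucleotides in capitals, and is followed below by its values.
chr8:44250384-44250443, minus strand, transcript between 44232164 and 44267061: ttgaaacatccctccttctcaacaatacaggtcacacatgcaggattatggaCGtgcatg
chr8:12541322-12541381, minus strand, transcript between 12535648 and 12544923: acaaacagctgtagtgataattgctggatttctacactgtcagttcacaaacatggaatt
chr8:82837143-82837202, minus strand, transcript between 82836971 and 82849309: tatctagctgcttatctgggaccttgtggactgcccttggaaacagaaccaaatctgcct
chr8:37596443-37596502, minus strand, transcript between 37582187 and 37621987: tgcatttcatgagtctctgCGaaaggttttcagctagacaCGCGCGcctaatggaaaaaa

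The probe between Triml1 and Triml2 read -0.11, -0.18 and -0.23 in the WT samples and -3.50, -3.63 and -3.36 in the TKO samples, a difference of -3.33 ± 0.08 (SE). It had the largest difference of the kept probes to its transcript. The others differed by -2.49, -1.14, -0.44 and -0.35, all called lower. The probe at the start of the chromosome had levels of 0.33, 0.25 and 0.24 in the WT dishes and of -2.50, -2.81 and -2.79 in the TKO dishes, so that the fitted difference was -2.97 ± 0.10 (SE). Both printed probes were high in all WT samples and low in all TKO samples. The probe in the middle of the chromosome went the other way, from -4.74, -4.89 and -5.29 in WT to -2.23, -2.19 and -2.25 in TKO, a difference of 2.75 ± 0.15 (SE). The fourth rose from -2.94, -3.31 and -3.75 in WT to -0.76, -0.76 and -0.83 in TKO, a difference of 2.55 ± 0.20 (SE). In all 4 the groups did not overlap.

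The promoters shown are the 250 bases before the annotated start of Zfp42 and of Ushbp1. Both genes fell by large amounts and stayed above background on all arrays, and Ushbp1 did so with 2 probes. They are from RefSeq in the build GRCm38.p6, not mm9, and are printed on the strand of the gene with CG dinucleotides in capitals.
Zfp42, chr8:43307010-43307259, minus strand: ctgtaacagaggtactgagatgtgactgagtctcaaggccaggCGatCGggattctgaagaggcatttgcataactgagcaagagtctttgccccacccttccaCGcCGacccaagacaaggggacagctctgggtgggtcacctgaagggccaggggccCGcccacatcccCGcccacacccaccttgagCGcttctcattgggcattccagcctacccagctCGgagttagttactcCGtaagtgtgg
Ushbp1, chr8:71395802-71396051, minus strand: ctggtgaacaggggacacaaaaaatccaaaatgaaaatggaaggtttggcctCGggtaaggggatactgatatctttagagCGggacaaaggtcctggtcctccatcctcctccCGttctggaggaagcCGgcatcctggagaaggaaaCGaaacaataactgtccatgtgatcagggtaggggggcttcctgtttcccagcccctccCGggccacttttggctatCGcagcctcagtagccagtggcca

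The Zfp42 stretch holds 9 CG dinucleotides and the Ushbp1 stretch 7. CG, which reads the same on both strands, occurs at least once in 91.7% of the 27025 stretches of this length in the RefSeq table. A promoter was found for 509 of the 736 matched symbols of the chromosome, 69.2%, so a comparison of CG content over the members is void.

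The shift was of the same size on every TKO array. The median of the members, each set against its own WT mean, was 0.01, -0.002 and -0.005 on the WT arrays and -0.23, -0.22 and -0.26 on the TKO arrays, which is -0.24 ± 0.020 (SD, n = 3) for TKO. The reference probes stood at -0.01, 0.01 and -0.03 on the same TKO arrays. Chromosome 8 minus reference was thus -0.222, -0.225 and -0.230 on the TKO arrays (-0.226 ± 0.00377, SD, n = 3) and between -0.00369 and 0.0031 on the WT arrays. The TKO arrays lay close together and far from the WT arrays. The first TKO sample shared the first slide row with the WT samples, while the others lay in the second row, and its value of -0.222 was the smallest in size of the 3. The difference of the group means, taken probe by probe, had a median of -0.220 relative to the reference, and of -0.131 when background was corrected with normexp on the raw signals.

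**Figure D1:**
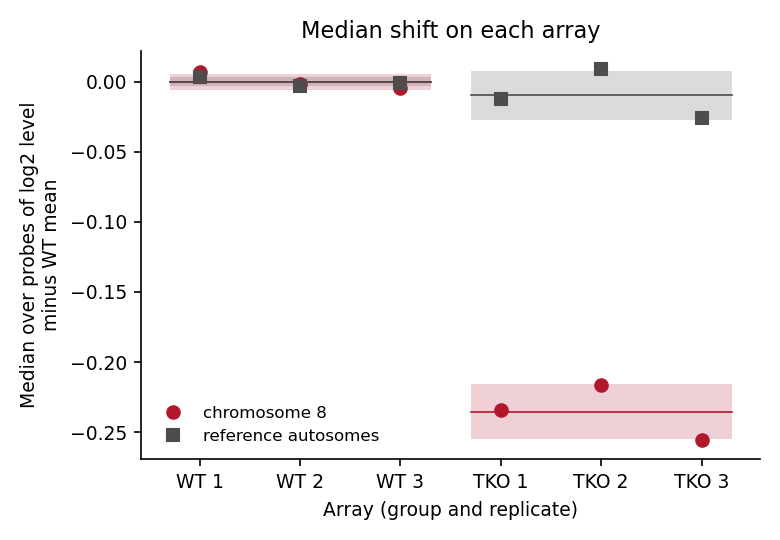
Median level of the kept probes of chromosome 8 and of the reference autosomes on each of the 6 arrays, as the log2 difference from the mean of the 3 WT arrays; lines and bands are the mean and SD of each group. Chromosome 8 lies between -0.26 and -0.22 on the TKO arrays, and the reference autosomes lie between -0.03 and 0.01.

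The chromosome also had the lowest median of all chromosomes on this scale, at -0.230, followed by chromosome 1 at -0.135 and chromosome 18 at -0.071. Chromosomes 1, 10 and 11, which the reference leaves out, stood at -0.135, -0.006 and 0.355. Chromosome 11 (2340 probes) was thus displaced upward by more, so a displaced chromosome was not particular to chromosome 8. The order of the chromosomes is part of how chromosome 8 was picked. The whole distribution of the members was displaced, and more so on its low side. The 10th percentile was -1.25 for chromosome 8 and -0.71 for the reference, the median -0.23 and -0.01, and the 90th percentile 0.64 and 0.79. Chromosome 8 minus reference was -0.54 at the 10th, -0.36 at the 25th, -0.22 at the 50th, -0.16 at the 75th and -0.15 at the 90th percentile. Of the members, 66.1% were below 0, against 51.0% of the reference probes.

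**Figure D2:**
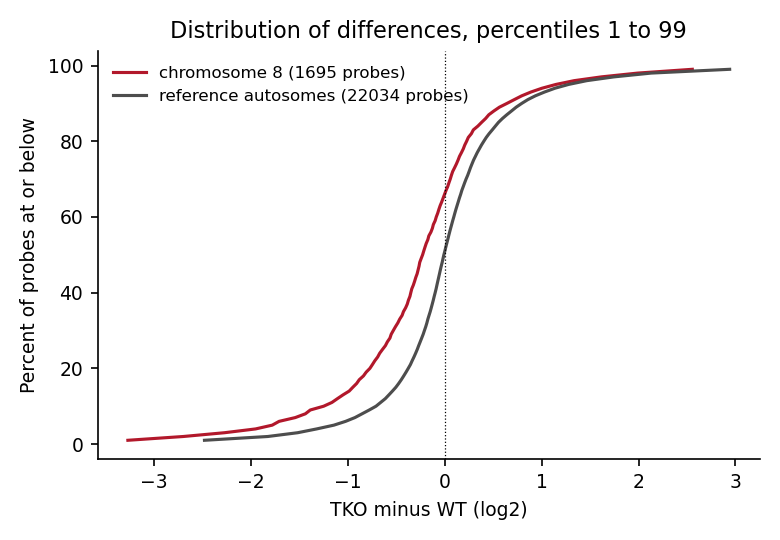
Cumulative share of kept probes against the TKO minus WT difference (log2) for chromosome 8 and for the reference autosomes. The chromosome 8 curve lies to the left at every percentile given in the text, by 0.54 at the 10th and by 0.15 at the 90th.

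Probe by probe, 818 members fell (48.3%) and 310 rose (18.3%), and 567 were not called. Over all kept probes 28.2% fell and 28.9% rose, and over the reference probes 27.7% and 27.3%. These shares come from the contrast that picked the chromosome, so nothing is read from the gap. In another scaling, each array was centred on the median of all its non-control probes in place of the 75th percentile. This moves the median difference of all kept probes from -0.005 to -0.199. With that scaling the members split into 1002 lower and 190 higher. Called changes of at least 2-fold numbered 228 lower and 98 higher members (13.5% and 5.78%), against 6.50% and 7.55% of all kept probes. All TKO values lay below all WT values for 885 members (52.2%, against 32.9% of all kept probes) and above them for 360 (21.2%, against 32.9%). Taken as 1 probe per name, the brightest, 569 of 1173 names fell and 224 rose, against 28.9% and 29.4% over all names.

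The calls that depend on detection were also mostly on the low side. Members above background on all 3 WT arrays and on no TKO array numbered 68 (4.01%), against 1.97% of the reference probes. The opposite class held 17 members (1.00%), against 1.08% of the reference. Such probes passed the filter only through the group in which they were high, and so had to differ. At the filter's edge, the 112 members above background on exactly 3 arrays had a median level of -4.75 and a median difference of -0.97, and the 79 probes on 2 arrays, just outside, had -5.07 and -0.49.

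Along the chromosome the lower values were not even. In 5-Mb windows, 23 of 27 held at least 20 members. Of these, 17 had a median below that of the reference probes and 6 above it, and 18 were below it on every TKO array taken singly and 5 above it on every TKO array. The window medians had an SD of 0.297, against 0.125 for 317 windows of the reference chromosomes. A median more than 0.2 below the reference was found in 13 windows (56.5%) here and in 17 of the reference windows (5.36%). A median more than 0.1 above it was found in 4 windows (17.4%) and in 49 reference windows (15.5%).

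**Figure D3:**
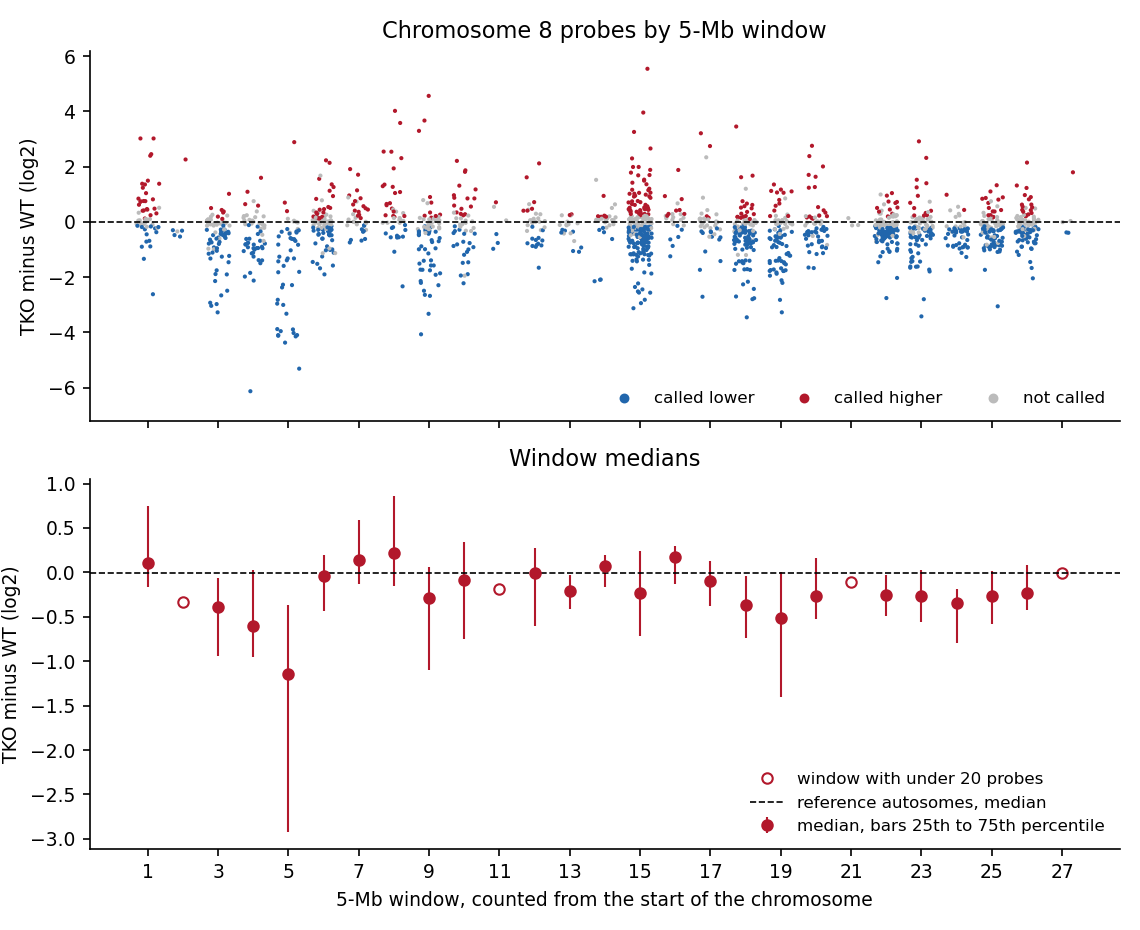
TKO minus WT difference (log2) of the members in 5-Mb windows numbered from the start of chromosome 8: above, each point is a probe coloured by its call, and below, points are window medians with bars from the 25th to the 75th percentile (open points for windows under 20 members). The dashed line is the reference median. The window medians run from -1.14 in the 20 to 25 Mb window to 0.21 in the 35 to 40 Mb window.

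For description, the chromosome was divided after this profile was seen. The first 10 Mb (63 members) stood at 0.08 relative to the reference median. From 10 to 25 Mb (183 members) it stood at -0.55, with 63.4% of members called lower and 7.65% called higher. From 25 to 40 Mb (171 members) it stood at 0.06, and 31.6% were called lower and 32.2% called higher. From 40 to 85 Mb (513 members) it was -0.16, with 43.1% called lower and 21.2% called higher, and -0.17, -0.15 and -0.17 on the 3 TKO arrays. The last stretch, from 85 Mb to the end (765 members), was at -0.27, and it was -0.26, -0.29 and -0.29 on the 3 TKO arrays, with 53.5% called lower and 13.9% called higher. Thus the 10 to 25 Mb stretch, the 40 to 85 Mb stretch and the long last stretch were low on every TKO array, while 2 stretches of the first 40 Mb were not.

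The lowest window, from 20 to 25 Mb, had a median of -1.14 over 50 members and a lower quartile of -2.92. It holds the alpha defensin genes. Its 35 members without a defensin, Gm or LOC name had a median of -0.58, with 25 lower and 3 higher. The 4 brightest named genes there all fell by moderate amounts. Vdac3, a channel of the outer mitochondrial membrane, had levels of 6.32, 6.30 and 6.27 in the WT dishes and of 5.98, 5.93 and 5.83 in the TKO dishes (-0.38 ± 0.05 SE). Mrps31, a protein of the mitochondrial ribosome, differed by -0.52 ± 0.06 (SE). Golga7, a partner of protein palmitoyltransferases at the Golgi, differed by -0.42 ± 0.04 (SE), and Vps36, a subunit of the ESCRT-II sorting complex, by -0.63 ± 0.05 (SE).

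In the next lowest window, from 15 to 20 Mb (median -0.61, 55 members), Mcph1, which acts in chromosome condensation and the DNA damage response, had levels of 2.38, 2.32 and 2.38 in the WT dishes and of 1.62, 1.56 and 1.56 in the TKO dishes (-0.78 ± 0.04 SE). Agpat5, an acyltransferase of phospholipid synthesis, was called lower at -0.11 ± 0.04 (SE), a call lost without any of the 6 samples (-0.12 to -0.10), and Xkr5, an XK-related membrane protein, was not called at 0.06 ± 0.05 (SE). The windows with the highest medians held falls as well. In the 35 to 40 Mb window (median 0.21, 43 members), D8Ertd82e (now Prag1, a pseudokinase) rose by 1.08 ± 0.08 (SE) and Tmem66 (now Saraf, a regulator of calcium entry) by 1.05 ± 0.06 (SE), while the dynactin subunit Dctn6 differed by -0.56 ± 0.04 (SE). Ppp1r3b, a glycogen-targeting phosphatase subunit, was not called at 0.14 ± 0.05 (SE). In the 75 to 80 Mb window (median 0.17, 25 members), the replication helicase subunit Mcm5 fell (-0.54 ± 0.04 SE), and the corepressor Sin3b, the sorting adaptor Tom1 and the haem oxygenase Hmox1 were not called at -0.08, 0.08 and 0.22. A dimmer Tom1 probe was called lower (fitted difference -1.24). It was above background on no TKO array, so only a bound can be given, at least 1.37-fold lower. Hmox1 was called higher without the first WT sample (0.32).

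The members were below the reference at every level of expression. All kept probes were divided into 5 groups of equal size by their mean level over the 6 arrays. From the dimmest to the brightest group, chromosome 8 minus reference was -0.22, -0.17, -0.25, -0.29 and -0.17, with 367, 331, 323, 325 and 349 members. Each of the 3 TKO arrays was below the reference in each group, from -0.16 to -0.31. The spread narrowed with level, with an interquartile range of 1.09 in the dimmest and 0.47 in the brightest group, against 0.89 and 0.34 in the reference probes. In the last stretch from 85 Mb the 5 values were -0.23, -0.31, -0.36, -0.29 and -0.24. Before 85 Mb they were -0.22, -0.07, -0.13, -0.28 and -0.10. The level groups use all 6 arrays, TKO included, so a probe that fell far is placed in a dimmer group than its WT level would give. Grouped by the WT mean instead, the 5 values were -0.13, -0.21, -0.25, -0.28 and -0.20. In the dimmest of these groups the members' own median was 0.02, with 21.3% lower and 23.1% higher, against 11.9% and 26.9% of the reference probes.

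**Figure D4:**
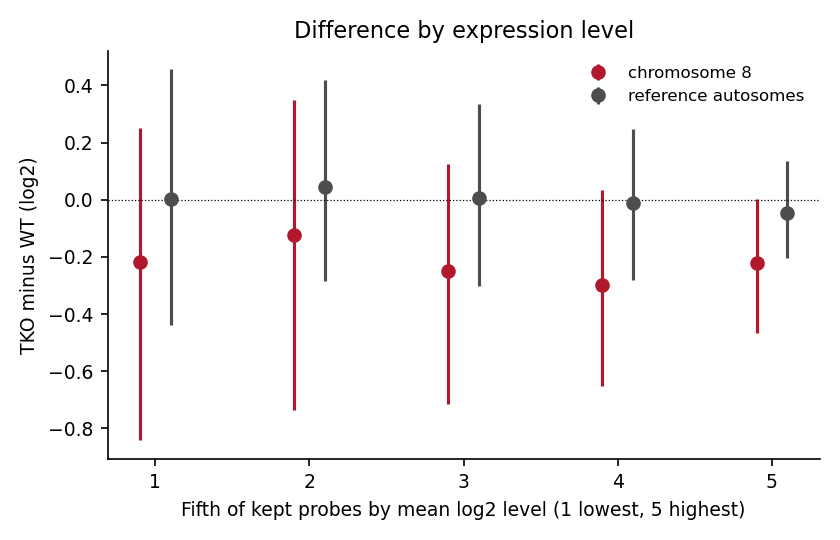
Median TKO minus WT difference (log2) in 5 groups of kept probes ordered by mean level, for chromosome 8 and for the reference autosomes, with bars from the 25th to the 75th percentile. Chromosome 8 is below the reference in every group, by 0.17 to 0.29.

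Bright probes were also taken alone. The 674 members in the 2 brightest groups, with a level of at least 0.36, had 400 falls (59.3%) and 110 rises (16.3%), against 33.1% and 28.2% of the bright reference probes. In 17 of 21 windows with at least 10 such members their median was below that of the reference, and it ran from -0.78 to 0.11. By the GC content of the probe sequence, from the lowest to the highest of 5 groups, chromosome 8 minus reference was -0.27, -0.31, -0.22, -0.11 and -0.15. Probes to noncoding transcripts were lower as well. The 445 members that are probes to long intergenic transcripts had a median of -0.19, with 175 lower (39.3%) and 76 higher (17.1%), against 20.9% and 19.7% of 4404 such probes on the reference chromosomes. The other 1250 members had a median of -0.24, with 643 lower and 234 higher. Relative to reference probes of the same kind, the medians were -0.18 and -0.23.

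The highest-level genes of the chromosome showed mostly small falls. The ribosomal protein gene Rpl13 differed by -0.24 ± 0.06 (SE). Cox4i1, a subunit of cytochrome c oxidase, had levels of 7.87, 7.84 and 7.89 in the WT dishes and of 7.36, 7.38 and 7.39 in the TKO dishes (-0.48 ± 0.04 SE). Ndufa13, of respiratory complex I, the translation repressor Eif4ebp1 and the chromatin protein Hmgb2 differed by -0.23, -0.28 and -0.17, all called. The call on Rpl13 was lost without the third TKO sample (-0.22), and that on Hmgb2 without any sample but the second WT and the third TKO sample (-0.18 to -0.15). The phosphodiesterase Pde4c was not called at 0.14 ± 0.07 (SE). The metallothioneins Mt1 and Mt2 were the only called rises among the 10 brightest names.

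The largest falls were far beyond the general displacement, and the groups did not overlap in any of them. Kbtbd11, which encodes a protein with kelch and BTB domains, had levels of 3.36, 3.32 and 3.29 in the WT dishes and of -2.30, -3.24 and -2.88 in the TKO dishes, so that the fitted difference was -6.13 ± 0.24 (SE). A second, dimmer Kbtbd11 probe was not called (0.38 ± 0.47 SE), with WT values of -3.89, -3.96 and -4.06 and TKO values of -3.26, -4.65 and -2.85. Zfp42, a zinc finger protein of the inner cell mass and a marker of naive stem cells, had levels of 7.48, 7.50 and 7.49 in the WT dishes and of 3.34, 3.48 and 3.46 in the TKO dishes, a 16.8-fold lower signal (-4.07 ± 0.05 SE). Its probe lies at 44380667 to 44380726. Zfp42 was still well above background on all TKO arrays.

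Ushbp1, whose protein binds the Usher syndrome protein harmonin, had levels of 2.46, 2.49 and 2.52 in the WT dishes and of -0.54, -0.67 and -0.71 in the TKO dishes (-3.12 ± 0.06 SE), and its second probe differed by -2.56 ± 0.71 (SE). Nkx6-3, a homeobox factor of the gut, differed by -2.96 ± 0.11 (SE). Pou4f2, a POU factor of retinal ganglion cells, had levels of 0.81, 0.80 and 0.83 in the WT dishes and of -1.91, -1.97 and -1.82 in the TKO dishes (-2.71 ± 0.05 SE). Cdh11, a cadherin of mesenchymal cells, differed by -2.76 ± 0.14 (SE), while another Cdh11 probe was not called at 0.30. Triml2, a tripartite motif family member next to Zfp42, differed by -2.68 ± 0.05 (SE). The zinc finger gene Zfp963, Ocel1, which has an occludin and ELL domain, and Il12rb1, a chain of the interleukin-12 receptor, completed the 10 largest, at -2.52, -2.44 and -2.35. With normexp background correction the dimmer of these differed by less, Zfp963 by -1.24, Il12rb1 by -1.49 and Cdh11 by -1.76, all still called.

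The 3 largest rises started from low WT levels. Lzts1, a leucine zipper protein known as a candidate tumour suppressor, had levels of -3.48, -3.36 and -4.03 in the WT dishes and of 0.21, 0.39 and 0.41 in the TKO dishes (3.96 ± 0.19 SE). Tbc1d9, of the family of GTPase-activating proteins for Rab GTPases, had levels of -4.18, -4.03 and -3.85 in the WT dishes and of -0.47, -0.57 and -0.66 in the TKO dishes (3.46 ± 0.10 SE). Fgl1, a fibrinogen-like protein secreted by liver, rose by 3.30 ± 0.05 (SE). All 3 genes were dim in WT and near the array's 75th percentile in TKO. Ccl25, described below, was next at 3.02. It was followed by the metallothionein Mt4 of squamous epithelium (2.38), the zinc finger and homeobox factor Zfhx3 (2.32), the ephrin ligand Efnb2 (2.26), the actinin partner Pdlim3 (2.21), the neural ubiquitin ligase Trim67 (2.15) and Ido2, an enzyme of tryptophan breakdown (2.14). Efnb2 had levels of -1.75, -2.04 and -1.72 in the WT dishes and of 0.36, 0.41 and 0.52 in the TKO dishes. With normexp background correction these rises from dim levels were smaller, at 2.56 for Lzts1, 1.81 for Tbc1d9, 2.09 for Fgl1, 1.34 for Zfhx3 and for Pdlim3, 0.88 for Trim67 and 0.71 for Ido2, all still called.

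The chemokine gene Ccl25, known from thymus and small intestine, had probes that disagreed. The brightest had levels of -0.24, -0.20 and -0.24 in the WT dishes and of 2.83, 2.80 and 2.76 in the TKO dishes (3.02 ± 0.04 SE). The second had levels of -2.03, -1.999 and -1.91 in the WT dishes and of -4.65, -4.58 and -4.57 in the TKO dishes, where it was well above background on no array (-2.62 ± 0.05 SE). For this probe only a bound can be given, at least 5.41-fold lower in TKO. The dimmest of the 3 in WT rose, from -3.64, -3.85 and -3.71 to -2.47, -2.36 and -2.30 (1.36 ± 0.08 SE). The probes of Gadd45gip1, a mitochondrial ribosomal protein, also moved apart, at 0.52 for the brighter and -2.43 for the dimmer one, both called. Of 337 names with more than 1 kept probe, 250 (74.2%) had all probes on the same side of 0, and the median range between probes of a name was 0.31.

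**Figure D5:**
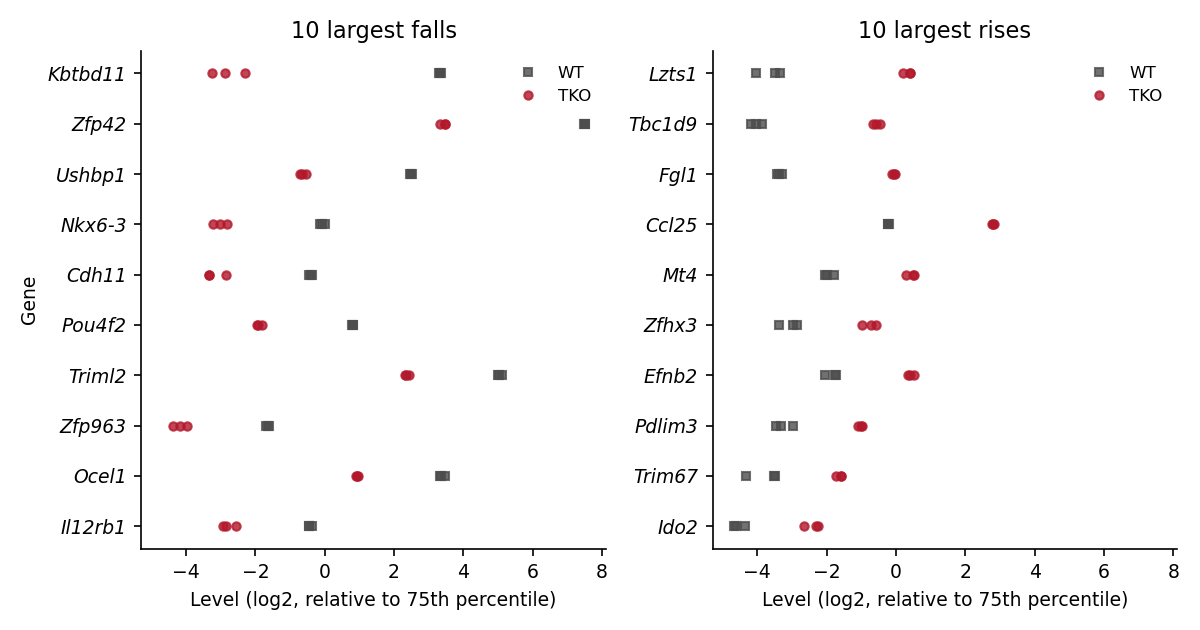
Level (log2 relative to the array's 75th percentile) on each of the 3 WT and 3 TKO arrays of the named genes of chromosome 8 with the largest falls and rises. WT and TKO points do not overlap in any gene shown; Zfp42 lies near 7.49 in WT and near 3.42 in TKO.

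Some genes were well above background on all arrays of one group and on none of the other, so that only a bound on the fold can be given: the mean of the bright group over, for each array of the dim group, the higher of the probe's own signal and the lowest signal among probes well above background. Defa3, an alpha defensin, was at least 11.45-fold lower in TKO and Defa2 at least 3.71-fold lower. Il27ra, an interleukin-27 receptor chain, was at least 3.12-fold lower, the heat shock factor Hsf4, known from the lens, at least 2.82-fold lower, and the defensin pseudogene Defa-ps1 at least 1.63-fold lower. On the other side, Retn, which encodes resistin, was at least 4.56-fold higher in TKO, the lectin Clec4g at least 4.00-fold higher and the carboxylesterase Ces1c at least 2.71-fold higher. The WT and TKO values of each did not overlap. The calls on Clec4g and Ces1c, which varied widely among TKO samples, were lost when some single samples were left out, Clec4g without any sample but the first of either group (fitted differences of 2.47 to 2.84) and Ces1c without the second WT, the third WT or the second TKO sample (2.20 to 2.50).

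Changes also came in neighbouring genes. The 7 loci given next were marked out after their values were seen, and their counts describe them only. Beside each count stand the shares over all kept probes, 28.2% lower and 28.9% higher. Over the members these shares were 48.3% and 18.3%. Between Triml1 and Zfp42 (44215637 to 44380726), 13 of 16 members fell and none rose, with a median of -1.65. Triml1 had levels of 4.00, 4.25 and 4.11 in the WT dishes and of 1.88, 1.84 and 1.78 in the TKO dishes (-2.29 ± 0.07 SE), and the long intergenic probe printed first above lies between it and Triml2. The whole row of genes from Triml1 through Triml2 to Zfp42 was thus lower in all TKO samples. Around Ushbp1 (73896997 to 73909332), the probes of Ocel1 and Ushbp1 fell while Nr2f6, an orphan nuclear receptor gene between them, was not called at 0.12 ± 0.04 (SE). Beside Kbtbd11, the gene of the sarcomere protein Myom2 differed by -2.12 ± 0.09 (SE).

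Alpha defensins are antimicrobial peptides of Paneth cells in the small intestine. Within their cluster (22194930 to 22805612), 15 of 18 members fell and none rose, the median was -3.89, and 13 were above background on all WT arrays and on no TKO array. Most of these members therefore passed the filter only through WT. Defa3 had levels of -1.10, -1.03 and -1.06 in the WT dishes and of -7.15, -6.31 and -5.67 in the TKO dishes. Defa23 had levels of -0.85, -1.07 and -0.91 in the WT dishes and of -4.57, -4.39 and -5.51 in the TKO dishes. The genes are near-identical copies and 1 transcript may bind many of the probes, so the count of members is not a count of separate genes. Of 35 defensin names on the array's chromosome 8, 6 were kept, and all 6 fell, with a median of -3.35 that became -0.84 with normexp background correction.

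Metallothioneins are small proteins that bind zinc and copper. In their cluster (96662155 to 96704224), 4 of 5 members, among them both probes of Mt1, rose and none fell. Mt1 had levels of 8.08, 8.07 and 8.01 in the WT dishes and of 8.57, 8.69 and 8.52 in the TKO dishes (0.54 ± 0.06 SE), and its dimmer probe rose by 1.70 ± 0.07 (SE). Mt2 rose by 0.34 ± 0.05 (SE) and was no longer called with arrays centred on their median. Mt3, the brain form, was not called at -0.13 ± 0.10 (SE), but was called lower under that centring and without the third TKO sample (-0.23). In the Iroquois cluster (94322476 to 95203939), which encodes homeobox factors of patterning, 6 of 12 members rose and 1 fell. Of the 6, 4 were probes to the noncoding gene Crnde or to overlapping long intergenic transcripts and 1 was a probe to Irx3os, an antisense transcript. Irx3 was thus the only homeobox gene called there. The 1 fall was another Irx3os probe (-0.36), so the probes of Irx3os disagreed, the one that rose being at 0.21. Irx3 had levels of -1.89, -1.70 and -2.06 in the WT dishes and of -0.34, -0.63 and -0.61 in the TKO dishes (1.36 ± 0.12 SE), and Irx5 and Irx6 were not called at 0.85 and 0.24.

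At Bst2, which encodes the antiviral membrane protein tetherin (74044036 to 74058662), all 3 members rose. Bst2 itself rose by 1.53 ± 0.04 (SE). The neighbouring C430049E01Rik (now Ccdc194, a coiled-coil protein) was well above background on no WT array and on all TKO arrays.

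Gene groups read along the chromosome had mostly more falls than rises. The 17 lists of chromosome 8 genes were chosen with results of these data known. Over all names of the array 28.9% fell and 29.4% rose. On chromosome 8 itself, 569 of 1173 names fell and 224 rose, and 59.3% of the bright members fell. More falls than rises in a list is thus what the chromosome as a whole shows, and is not read as a trait of that list. Of 11 kept regulators of pluripotency and the early embryo, 9 fell and 1 rose, with a median of -0.65. Klf2, a naive pluripotency factor, had levels of 6.01, 5.82 and 5.92 in the WT dishes and of 5.47, 5.54 and 5.43 in the TKO dishes (-0.44 ± 0.06 SE). The stem cell factor Sall1 differed by -0.65 ± 0.04 (SE) and Zfp423, a zinc finger partner of SMAD proteins, by -1.22 ± 0.08 (SE). The epithelial cadherin gene Cdh1 rose, from 3.77, 3.75 and 3.80 to 4.18, 4.13 and 4.13 (0.37 ± 0.04 SE), but was no longer called with median centring.

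Of 27 genes of DNA replication and the cell cycle, 19 fell and 1 rose (median -0.39). Gins4 and Gins2, subunits of the GINS complex of the replicative helicase, both fell. Gins4 had levels of 4.32, 4.25 and 4.29 in the WT dishes and of 3.22, 3.30 and 3.26 in the TKO dishes (-1.03 ± 0.04 SE), and Gins2 differed by -0.91 ± 0.04 (SE). The histone chaperone gene Asf1b fell by 0.91 and the origin recognition subunit Orc6 by 0.19 on the log2 scale. The cohesin loader gene Mau2 rose by 0.46. Of 18 genes of DNA repair and telomeres, 13 fell and 1 rose (median -0.31), among them the glycosylase gene Neil3 at -0.97 ± 0.05 (SE) and the shelterin subunit Terf2 at -0.44 ± 0.04 (SE).

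Of 23 genes of chromatin and nuclear architecture, 17 fell and 1 rose (median -0.33). The bromodomain gene Brd7 differed by -0.52 ± 0.04 (SE) and the remodelling ATPase Smarca5 by -0.23 ± 0.04 (SE). Ctcf, the insulator protein, was not called at 0.00 ± 0.05 (SE), with WT values of 3.56, 3.43 and 3.51 and TKO values of 3.53, 3.49 and 3.50. The rise was Tox3, an HMG-box factor (1.11 ± 0.06 SE). Several genes, such as Asf1b, stand in more than 1 list.

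Of 24 genes of mitochondria and energy metabolism, 19 fell and 2 rose (median -0.33). The acyl-CoA synthetase gene Acsl1 had the largest difference, -1.08 ± 0.07 (SE), and the peroxisomal protease Lonp2 differed by -0.72 ± 0.05 (SE). Of 14 genes of ubiquitin and protein turnover, 8 fell and 2 rose (median -0.23). The protease Ufsp2, which removes UFM1 from proteins, had levels of 3.26, 3.28 and 3.19 in the WT dishes and of 1.48, 1.30 and 1.28 in the TKO dishes (-1.89 ± 0.07 SE). Of 12 genes related to apoptosis and p53, 8 fell and 1 rose (median -0.56), the rise being the quinone reductase Nqo1 (1.04 ± 0.10 SE). The alanyl-tRNA synthetase gene Aars, in the same list, differed by -0.65 ± 0.04 (SE).

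Of 6 kept genes of a list named for immediate early and AP-1 genes, 4 fell and 1 rose (median -0.51). The rise was that of the mitochondrial ribosomal gene Gadd45gip1 described above, and the falls included Nfix, a nuclear factor I gene (-0.32 ± 0.07 SE), neither of which is an immediate early gene. The phosphatase gene Dusp4, a target of ERK signalling, had levels of -0.82, -0.69 and -0.95 in the WT dishes and of -1.85, -1.87 and -1.98 in the TKO dishes (-1.08 ± 0.08 SE). The AP-1 gene Junb was above background on 1 TKO array only and differed by -1.72 ± 0.10 (SE). Of 19 genes of growth factor signalling, 12 fell and 4 rose (median -0.33). Both signs were large here. The lymphatic growth factor Vegfc had levels of 3.25, 3.15 and 3.21 in the WT dishes and of 1.55, 1.55 and 1.53 in the TKO dishes (-1.66 ± 0.04 SE), and the cytokine receptor kinase Jak3 differed by -1.83 ± 0.06 (SE). Nrg1, a ligand of ERBB receptors, rose by 1.71 ± 0.06 (SE) and the TIE2 ligand Angpt2 by 1.09 ± 0.17 (SE).

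Other lists were split or had a positive median, and with arrays centred on their median the positive medians of the cadherins and of the matrix genes became -0.04 and -0.06. Of 11 genes of extracellular matrix and adhesion, 5 fell and 5 rose (median 0.14). The basement membrane collagen gene Col4a1 differed by -0.92 ± 0.04 (SE), while the neural proteoglycan Ncan rose by 1.42 ± 0.11 (SE) and the WNT antagonist Sfrp1 by 0.70 ± 0.06 (SE). Of 6 cadherins, 1 fell and 3 rose (median 0.16), among them the placental cadherin Cdh3 (0.95 ± 0.09 SE) and the muscle cadherin Cdh15 (0.82 ± 0.13 SE). Of 23 zinc finger genes named Zfp, 10 fell and 7 rose (2 with median centring; median -0.18), with Zfp869 rising by 1.79 ± 0.05 (SE) and Zfp961 at -1.06 ± 0.05 (SE).

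Of 7 Iroquois, Fox and Klf factors, 3 fell and 1 rose. Their median of 0.24 was 0.04 with median centring, 0.08 with quantile normalisation and 0.06 with normexp. The mesenchymal factor Foxc2 differed by -1.73 ± 0.16 (SE) and the erythroid factor Klf1, above background on 1 TKO array, by -2.26 ± 0.16 (SE). Of 4 kept ADAM proteases of 13 on the array, 1 fell and 1 rose, and of 2 kept carboxylesterases of 19, none fell and 1 rose. The median of those 2 was 1.29, and 0.31 with normexp.

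The checks of the samples as a whole were these. Correlations over the kept probes were 0.9965 to 0.9971 among WT arrays, 0.9925 to 0.9938 among TKO arrays and 0.9606 to 0.9645 between groups. The share of spots well above background ran from 51.9% to 58.5%, lowest in the 2 TKO samples of the second slide row, and no spot was saturated. Tet1 and Tet2 fell by 1.37 and 2.93 on the log2 scale, and Tet3 was not called at -0.24 ± 0.10 (SE). Of 18 kept feeder fibroblast markers of 20, 14 rose (6 with median centring) and 1 fell, and their summed linear level, in multiples of the array's 75th percentile, was 37.3 to 38.3 in WT and 54.6 to 56.7 in TKO. Lum was above background on no array. Acta2, the brightest of that list in TKO, had log2 levels of 2.708 to 2.890 in WT and 3.941 to 4.040 in TKO. The feeder sum was not taken without Acta2, so its rise is not read as even across the list. The 1 fall was Pdgfrb, at -0.617 to -0.327 in WT and -3.038 to -2.525 in TKO. Of 12 embryonic stem cell markers, 7 fell and 2 rose (0 with median centring). Their summed linear level was 965 to 1035 in WT and 699 to 754 in TKO. Zfp42, itself a member on chromosome 8, is on that list, with log2 levels of 7.481 to 7.503 in WT and 3.336 to 3.479 in TKO. The sum was not taken without Zfp42, so its drop is not read as a loss shared by the list. The part of either marker list in the values of chromosome 8 was not tested.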

How the data were processed

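Total RNA of 6 samples (3 WT, 3 TKO) was labelled with Cy3 and each hybridised to 1 array of 1 slide, per the labels. The deposited scanner files, made with Agilent Feature Extraction 11.5.1.1 per the file headers, give processed intensity after background subtraction and spatial detrending, not normalised between arrays, with 0 or 1 flags for spots well above background. The authors' deposited table of log2 values equalled log2 of that intensity plus a constant per array (within 0.01 for all values), with column medians of -3.96 to -3.72. Its scaling is not stated in the sources used here.

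Outlier spots and control spots were left out, spots of 1 probe averaged, each array scaled to the 75th percentile of its non-control spots, and log2 taken. Probes well above background on at least 3 arrays were fitted with limma 3.58.1 in R 4.3.3 (lmFit, eBayes, all 6 arrays, no block). Names follow the array, and current symbols RefSeq. The limma step was tested on simulated data. The number of arrays, 3 a group, limits the precision.

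Members and gene lists were chosen with earlier results of these data known. Genes named are members of the lists, the 10 largest falls and rises above background in both groups, up to 5 bounds each way, the 10 brightest, the 4 brightest in the 2 lowest and 2 highest windows, and probes of named genes that point the other way, each gene by its brightest probe unless said. A few genes that meet this rule are not reported here. Bst2, C430049E01Rik, Crnde, Irx3os, Myom2, Nr2f6 and the long intergenic transcripts fall outside this rule and were chosen after their values were seen. Alternatives were other scalings, background correction, filters, windows, references and blocks, and leaving out each sample.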

Additional observations from a re-analysis of the deposited data

How the results depend on the processing

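Chromosome 8 minus reference was below 0 under every alternative run, and so were all 5 level groups. Median centring and the deposited table shift each array by a constant, so apart from rounding they could not change these values. It was -0.226 with quantile normalisation, -0.131 with normexp background correction, -0.211 with probes above background on all 6 arrays, -0.170 with no filter, -0.205 with 1 probe per name and -0.234 against all other autosomes. Of alternatives added after seeing the data, it was -0.208 without the 20 to 25 Mb window and -0.207 with only members above background on at least 1 array of each group. The median difference of the members was -0.424 with median centring, -0.286 with quantile normalisation, -0.152 with normexp, -0.257 in the deposited table, -0.210 with the filter on all 6 arrays and 0.011, of opposite sign, with no filter. The reference median was then -0.205 with median centring, -0.060 with quantile normalisation, -0.033 in the deposited table, 0.181 with no filter and -0.021 with normexp, the last moving against that of the members. Members called higher numbered 190 with median centring. With 10-Mb windows, 10 of 13 were below the reference. Leaving out each sample in turn gave -0.246 to -0.217 for the median, -0.228 to -0.218 for chromosome 8 minus reference, -0.021 to 0.001 for the reference, 734 to 792 lower and 266 to 288 higher members, and 17 to 18 windows below. Same-numbered samples did not deviate together (correlations -0.061, -0.0083 and 0.0026), so the numbers do not pair the samples; a fit with the replicate block called 761 members lower and 266 higher. With the slide row as a block, the difference rests on the first TKO sample, the only one in the row of the WT samples. Chromosome 8 minus reference was then -0.222.

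Of the uncalled genes named, Nr2f6 was -0.076, Xkr5 -0.14, Ctcf -0.19, Ppp1r3b -0.053, Pde4c -0.058 and Tom1 -0.12 with median centring. Xkr5 was -0.0062 with quantile normalisation, -0.0065 with normexp and -0.022 with the row block and within the first row. Ctcf was -0.02 in the deposited table and -0.033 to 0.033 with each sample left out. Median centring moves the difference of every member down by the same amount, so the turns under it follow from that scaling. The cause of the other turns was not tested. Levels near background limit the dim members, since a signal under the detection limit gives only a bound.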
